A study of Mus musculus with 6 samples.

Results

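The genes described here are 39 genes of fatty acid oxidation and of the peroxisome proliferator-activated receptors (PPARs), among 40481 genes counted in bone marrow-derived macrophages (BMDMs). They were chosen by gene symbol as genes of these pathways, with earlier results of these data known. Each symbol was matched to 1 entry of the count table. The study sequenced poly(A)-selected RNA of unstimulated BMDMs from 3 samples of wild type and 3 of *Scd2*-m/-m, 1 library per sample, to find which genes differ when macrophages lack stearoyl-CoA desaturase 2, an enzyme that puts a double bond into saturated long-chain fatty acids. *Scd2*-m/-m mice carried floxed *Scd2* alleles and the lysozyme M-Cre transgene, which is active in cells of the myelomonocytic lineage. The label of the wild-type samples gives only the genotype WT, and the sources do not say whether these mice carried floxed alleles or Cre. The mice of the study were adults of both sexes, and the sex and age behind each library are not given. The same protocol is given for both genotypes, with CMG-conditioned medium in the culture medium, renewal on day 3 and 5 to 6 days of differentiation. The day of each sample within that range is not given. The labels do not say whether the 3 samples of a genotype came from separate mice, so p-values measure the spread between these samples, which may be technical.

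Fatty acids are burned in mitochondria after they are joined to coenzyme A, passed to carnitine, carried across the inner membrane and then shortened by rounds of dehydrogenation, hydration, a second dehydrogenation and thiolysis. Peroxisomes run a parallel pathway that shortens very long and branched chains and hands the products on. PPARs are nuclear receptors that bind fatty acids, pair with retinoid X receptors and switch on many of these genes, and in macrophages PPAR gamma and PPAR delta are linked to lipid handling and alternative activation.

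The libraries held between 46285176 and 57629638 counts on genes. *Scd2*, the deleted gene, had 66.9, 77.7 and 62.7 CPM (the count scaled to a common library size) in the wild-type libraries and 59.5, 37.9 and 39.8 CPM in the *Scd2*-m/-m libraries, a log2 fold change of −0.59 (SE 0.19, FDR = 0.1002 from edgeR's quasi-likelihood test). The difference did not reach an FDR below 0.05, and *Scd2*-m/-m replicate 1 came close to the lowest wild-type library. The paper reported a stronger loss of *Scd2* transcript in *Scd2*-m/-m BMDMs, measured relative to housekeeping genes. The counts used here cover all exons of *Scd2* and do not separate the deleted part. Macrophage markers were present in every library, with 0 of 11 without counts, and their summed level was 38897 to 39960 CPM in wild-type and 22833 to 23537 CPM in *Scd2*-m/-m libraries. Of these 11 markers 1, *Cd68*, was called higher and 6 lower. *Lyz2*, the lysozyme M gene, was one of the 6, with a mean of 22742 CPM against 9026 CPM, and without it the other 10 summed to 16742 to 16822 CPM against 13976 to 14487 CPM. Markers of dividing cells moved with genotype. All 10 were higher in *Scd2*-m/-m BMDMs, with a summed level of 49.6 to 59.6 CPM in wild-type and 152 to 164 CPM in *Scd2*-m/-m libraries. Of 10 markers of monocytes and progenitors 5 were called higher, with a summed level of 43.8 to 61.5 CPM against 102 to 161 CPM. *Ccr2* made up most of this sum, with a mean of 47.8 CPM against 115 CPM. The next highest, *Ly6c2*, had a mean of 2.91 CPM against 5.13 CPM. Of 12 markers of neutrophils and their precursors 6 were called higher and 1 lower, with a summed level of 169 to 179 CPM against 154 to 183 CPM. Most of that sum was *Csf3r*, the marker called lower, and the other 11 summed to 11.2 to 11.8 CPM against 26.9 to 34.5 CPM. None of the markers of these 3 groups was without counts, and their part in the results below was not tested. Adipocyte markers, which share genes with the PPAR pathway, summed to at most 0.181 CPM in any library, and *Adipoq* was at 0.

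Of the 39 genes, 37 passed the filter on low counts, and 11 of them (29.7%) differed between the genotypes at an FDR below 0.05, beside 17.5% of all 14778 genes tested. The direction was uneven. In *Scd2*-m/-m BMDMs 10 genes rose and 1 fell, while over all genes tested 9.65% rose and 7.84% fell. Of the 37 genes, 28 had a log2 fold change above 0, beside 50.7% of all genes tested, and the median log2 fold change was 0.13, beside 0.0039 for all genes tested. The 3 libraries of one genotype did not overlap with those of the other in 22 of the 37 genes, beside 34.9% of all genes tested. *Scd2*-m/-m was the higher in 19 of these and the lower in 3, beside 17.9% and 17.0% of all genes tested. The changes were small. Among the 11 called genes the size of the log2 fold change was 0.18 to 0.74, and none came near the absolute log2 fold change of 2 used as a stricter threshold, which 0.663% of all genes tested passed together with the FDR. In bulk RNA, a change in a share of the cells and a change in RNA per cell cannot be told apart.

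By compartment, of the 19 mitochondrial genes 7 rose and 0 fell, and of the 8 peroxisomal genes 3 rose and 0 fell. *Crat* and *Eci2*, enzymes of both compartments that both rose, were counted only as mitochondrial and only as peroxisomal, respectively. Among the 10 tested genes of fatty acid activation, thioesterases and regulators, 0 rose and 1, *Acsl5*, fell. The CPM of the 19 mitochondrial genes summed to 890, 886 and 884 in wild-type and to 986, 1022 and 998 in *Scd2*-m/-m libraries, or 113% of the wild-type mean. The 8 peroxisomal genes summed to 574, 571 and 565 in wild-type and to 611, 620 and 572 in *Scd2*-m/-m libraries, or 105%. The mitochondrial sums of the genotypes did not overlap, while the lowest *Scd2*-m/-m sum of the peroxisomal genes fell among the wild-type sums. That low value came from *Acaa1a* in *Scd2*-m/-m replicate 3. Without this gene the other 7 peroxisomal genes summed to 372 to 379 CPM in wild-type and 395 to 408 CPM in *Scd2*-m/-m libraries, or 107%, with no overlap. *Acaa1a* was left out after its values were seen and because of that overlap, so this second sum is a description and no test. The share of genes called was 36.8% of the mitochondrial and 37.5% of the peroxisomal genes, beside 17.5% of all genes tested.

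**Figure D1:**
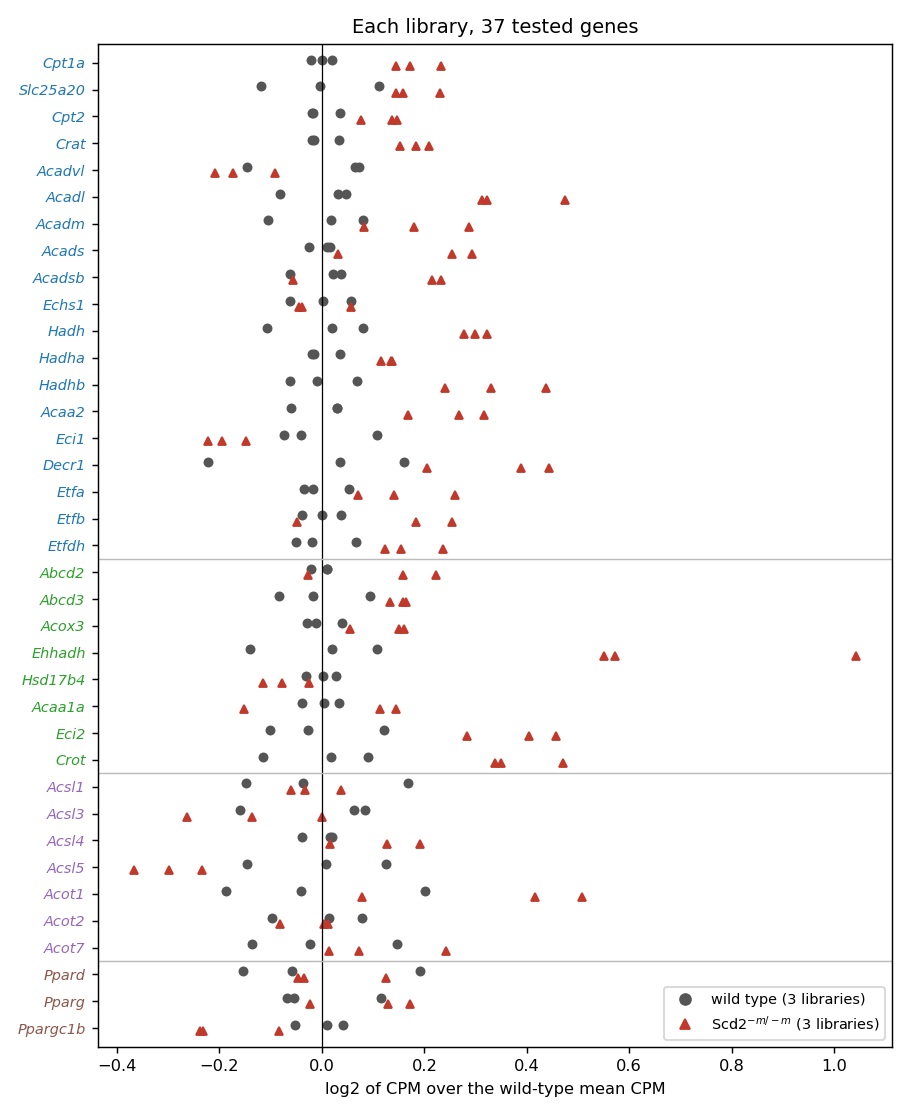
Level of each of the 37 tested genes in each library, as the log2 of its CPM over the wild-type mean CPM of the gene, with wild-type libraries as grey circles and *Scd2*-m/-m libraries as red triangles (gene names in blue for mitochondrial, green for peroxisomal, purple for activation and thioesterase, and brown for regulator genes). The red triangles lie to the right of all grey circles in 19 genes, most of them mitochondrial, and to the left in *Eci1*, *Acsl5* and *Ppargc1b*. Over all genes tested, 17.9% separate to the right and 17.0% to the left in this way.

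The bases upstream of 5 genes whose level changed are shown first, because these genes moved together or, for *Acsl5*, the other way. They are 250 bases before the RefSeq start of *Acadl*, *Hadh*, *Ehhadh* and *Acsl5*, and the 85 bases that separate the GENCODE starts of *Hadha* and *Hadhb*, 2 neighbouring genes read in opposite directions. None of these stretches overlaps an annotated exon. They lie at chr1:66863310-66863559 (minus strand) for *Acadl*, chr3:131272102-131272351 (minus strand) for *Hadh*, chr16:21787835-21788084 (minus strand) for *Ehhadh*, chr19:55253119-55253368 (plus strand, in an intron of the longer GENCODE gene) for *Acsl5* and chr5:30155163-30155247 (plus strand, in the direction of *Hadhb*) for *Hadhb*, in build GRCm38.p6, 5′ to 3′. Capitals mark GC boxes, GGGCGG on either strand.
Acadl: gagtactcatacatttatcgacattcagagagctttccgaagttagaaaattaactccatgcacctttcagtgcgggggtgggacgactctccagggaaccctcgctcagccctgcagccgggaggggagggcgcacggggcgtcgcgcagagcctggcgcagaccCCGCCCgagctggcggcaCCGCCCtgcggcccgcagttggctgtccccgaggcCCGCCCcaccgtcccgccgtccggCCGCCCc
Hadh: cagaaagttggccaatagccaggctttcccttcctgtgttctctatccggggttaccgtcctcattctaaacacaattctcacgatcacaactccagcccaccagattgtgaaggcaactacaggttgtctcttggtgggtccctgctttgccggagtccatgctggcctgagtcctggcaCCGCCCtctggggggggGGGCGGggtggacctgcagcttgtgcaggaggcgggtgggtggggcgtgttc
Ehhadh: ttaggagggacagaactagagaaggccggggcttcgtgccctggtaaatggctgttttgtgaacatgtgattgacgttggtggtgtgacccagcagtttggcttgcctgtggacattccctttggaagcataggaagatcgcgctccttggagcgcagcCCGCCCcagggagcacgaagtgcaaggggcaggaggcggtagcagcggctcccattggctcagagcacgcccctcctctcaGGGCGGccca
Acsl5: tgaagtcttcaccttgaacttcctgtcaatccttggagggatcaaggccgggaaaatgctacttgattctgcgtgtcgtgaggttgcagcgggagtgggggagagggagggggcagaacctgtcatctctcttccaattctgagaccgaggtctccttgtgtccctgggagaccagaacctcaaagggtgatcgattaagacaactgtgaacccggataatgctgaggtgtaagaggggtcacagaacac
Hadhb: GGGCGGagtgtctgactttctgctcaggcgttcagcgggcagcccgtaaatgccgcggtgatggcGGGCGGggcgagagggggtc

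*Acadl* holds 4 GC boxes, *Hadh*, *Ehhadh* and the *Hadhb* stretch hold 2 each, and *Acsl5* holds 0. The *Acsl5* stretch lies inside the longer GENCODE gene, which starts at base 55251938, and does not show the bases before that start. Their GC content is 68.0% for *Acadl*, 59.6% for *Hadh*, 60.4% for *Ehhadh*, 52.8% for *Acsl5* and 69.4% for the *Hadhb* stretch. RefSeq gave upstream windows for 33 of the 39 genes, 37 windows in all, and 7 motifs were searched on both strands of the 250 bases before each start. A GC box was found in 67.6% of the 37 windows, beside 32.7% of all 32851 windows. These 32851 windows were not limited to the genes tested in these BMDMs. The windows of *Hadha* and *Hadhb*, counted for each gene, share 228 of their 250 bases. By gene, 24 of the 33 had one, and so did 7 of the 8 called genes that had a window. The rest of the 24 were not called, among them *Acsl1*, *Acsl3*, *Acsl4*, *Echs1* and *Ppard*, and *Eci1*, which was lower in *Scd2*-m/-m libraries. The stretches shown above were picked by direction of change, and whether GC boxes follow that direction was not tested. The PPAR element DR1, read as 2 copies of AGGTCA in the same direction with 1 base between them, was found in 0 of the 37 windows and in 0.0335% of all windows. A single AGGTCA, the nuclear receptor element, was found in *Cpt1a*, *Acadm*, *Acadvl*, *Echs1* and *Pparg*, or 16.2% of the 37 windows beside 14.0% of all. The estrogen-related receptor element TCAAGGTCA, which contains that repeat, was found in 0 of the 37 windows (0.387% of all), and the E-box CACGTG in 0 (6.02% of all). The NRF1 element, read as GCGC and TGCGC with 1 base between them, was found in *Etfb*, *Etfdh*, *Abcd3* and *Ppara* (3.74% of all windows), and the ETS element CCGGAAGT in *Cpt2* and *Slc25a20* (2.88% of all). A missing match says only that these letters are not in these windows.

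In the carnitine shuttle, which brings long-chain fatty acids into mitochondria, 2 of 4 genes were called, beside 17.5% of all genes tested. In each of the 4, every *Scd2*-m/-m library lay above every wild-type library, as in 17.9% of all genes tested. *Cpt1a*, the carnitine palmitoyltransferase that starts the shuttle and sets its rate, had 170, 168 and 165 CPM in wild-type and 185, 197 and 189 CPM in *Scd2*-m/-m libraries. It rose by a log2 fold change of 0.18 (SE 0.06, FDR = 0.0354, edgeR), to 114% of the wild-type level. *Crat*, the carnitine acetyltransferase of mitochondria and peroxisomes, had 104, 104 and 107 CPM against 119, 121 and 117 CPM, also a log2 fold change of 0.18 (SE 0.05, FDR = 0.0349, edgeR). These rises are close to the threshold. *Slc25a20*, the carnitine-acylcarnitine carrier of the inner membrane, had 34.5, 31.9 and 29.4 CPM against 37.5, 35.3 and 35.7 CPM (log2 fold change 0.18, SE 0.07, FDR = 0.104, edgeR). *Cpt2*, which returns the chain to coenzyme A inside the mitochondrion, had 23.4, 22.6 and 22.5 CPM against 25.3, 24.1 and 25.1 CPM (log2 fold change 0.12, SE 0.07, FDR = 0.244, edgeR). For both the genotypes were separate but the difference did not pass the threshold.

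The acyl-CoA dehydrogenases take the first oxidation step, each for a range of chain lengths, and differed among themselves. *Acadl*, for long chains (chromosome 1, 66830839 to 66863277), had 40.8, 37.3 and 40.4 CPM in wild-type and 49.02, 49.4 and 54.8 CPM in *Scd2*-m/-m libraries. Its log2 fold change of 0.37 (SE 0.07, FDR = 0.00185, edgeR) was the largest of the mitochondrial genes. *Acadm*, for medium chains, had 57.5, 55.1 and 50.5 CPM against 57.6, 61.5 and 66.3 CPM, and *Acads*, for short chains, had 33.8, 32.9 and 33.7 CPM against 41.0, 39.9 and 34.2 CPM. In both genes the *Scd2*-m/-m values were the higher, in each case with 1 of them only just, and their FDRs were 0.0920 and 0.0863 (edgeR). *Acadsb*, for short branched chains, overlapped between the genotypes, at 39.7 to 42.5 CPM against 39.8 to 48.7 CPM (95% interval of the log2 fold change −0.033 to 0.30). *Acadvl*, for very long chains, pointed the other way, with 19.3, 19.4 and 16.7 CPM against 16.0, 17.3 and 16.4 CPM (log2 fold change −0.16, 95% interval −0.34 to 0.021). Of the transcript 50-mers of *Acadvl*, 26.9% also occur in another gene, most often *Dvl2*. The ratio of *Acadl* to *Acadvl* within a library was 2.11, 1.92 and 2.42 in wild-type and 3.07, 2.85 and 3.35 in *Scd2*-m/-m libraries (exact permutation test, p = 0.1, two-sided, which 3 libraries against 3 cannot go below, and 0.1 adjusted over the 5 ratios computed). These 5 ratios pair related genes and were chosen after the values were seen.

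In the rest of the mitochondrial spiral 3 of 5 genes rose, beside 9.65% of all genes tested. *Hadh*, the hydroxyacyl-CoA dehydrogenase of the matrix (chromosome 3, 131233419 to 131272101), had 38.8, 42.4 and 44.2 CPM against 51.4, 50.6 and 52.2 CPM, a log2 fold change of 0.30 (SE 0.07, FDR = 0.00572, edgeR). *Hadhb*, the thiolase subunit of the mitochondrial trifunctional protein (chromosome 5, 30155248 to 30184593), had 27.8, 28.8 and 30.4 CPM against 34.2, 36.5 and 39.3 CPM, a log2 fold change of 0.34 (SE 0.07, FDR = 0.00451, edgeR). *Acaa2*, the other thiolase of the matrix, had 25.8, 27.5 and 27.5 CPM against 32.4, 33.5 and 30.2 CPM, a log2 fold change of 0.25 (SE 0.07, FDR = 0.0200, edgeR). In all 3 the genotypes did not overlap.

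*Hadha*, the other subunit of the trifunctional protein and the gene that shares the stretch shown above with *Hadhb*, had 147, 141 and 141 CPM against 157, 157 and 155 CPM (log2 fold change 0.13, 95% interval 0.013 to 0.25, FDR = 0.123, edgeR). Its libraries also separated, by a smaller margin. The ratio of *Hadhb* to *Hadha* was 0.190, 0.204 and 0.216 in wild-type and 0.218, 0.232 and 0.254 in *Scd2*-m/-m libraries, a log2 difference of 0.21 (p = 0.1 by the same exact permutation test, its lower limit). The highest wild-type ratio and the lowest *Scd2*-m/-m ratio nearly met. Of the transcript 50-mers of *Hadhb*, 19.7% also occur in another gene, most often *Gm13910*, so part of its count depends on how shared reads were assigned. *Echs1*, the short-chain enoyl-CoA hydratase, overlapped between the genotypes, at 28.8 to 31.3 CPM against 29.2 to 31.3 CPM (95% interval of the log2 fold change −0.15 to 0.13).

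The auxiliary enzymes, which deal with the double bonds of unsaturated chains, went in different directions. *Decr1*, the mitochondrial dienoyl-CoA reductase used for polyunsaturated chains, had 10.6, 12.6 and 13.8 CPM against 14.2, 16.8 and 16.1 CPM, a log2 fold change of 0.35 (SE 0.11, FDR = 0.0343, edgeR). *Eci1*, the mitochondrial enoyl-CoA isomerase used for chains such as oleate, had 11.04, 12.5 and 11.3 CPM against 10.5, 10.1 and 9.96 CPM, a log2 fold change of −0.19 (SE 0.09, FDR = 0.184, edgeR). All its *Scd2*-m/-m libraries were below all wild-type ones, but the difference did not pass the threshold.

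The electron transfer flavoprotein, which takes the electrons of the first oxidation step to the respiratory chain, had no called gene. *Etfa*, its alpha subunit, had 25.8 to 27.5 CPM against 27.8 to 31.7 CPM (95% interval of the log2 fold change 0.0084 to 0.31, FDR = 0.142, edgeR). *Etfdh*, the membrane oxidoreductase that passes the electrons to ubiquinone, had 26.1 to 28.3 CPM against 29.4 to 31.8 CPM (95% interval 0.028 to 0.32, FDR = 0.0975, edgeR). *Etfb*, the beta subunit, overlapped, at 23.1 to 24.3 CPM against 23.0 to 28.3 CPM, and 44.8% of its 50-mers occur in another gene, most often *Gm45233*.

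**Figure D2:**
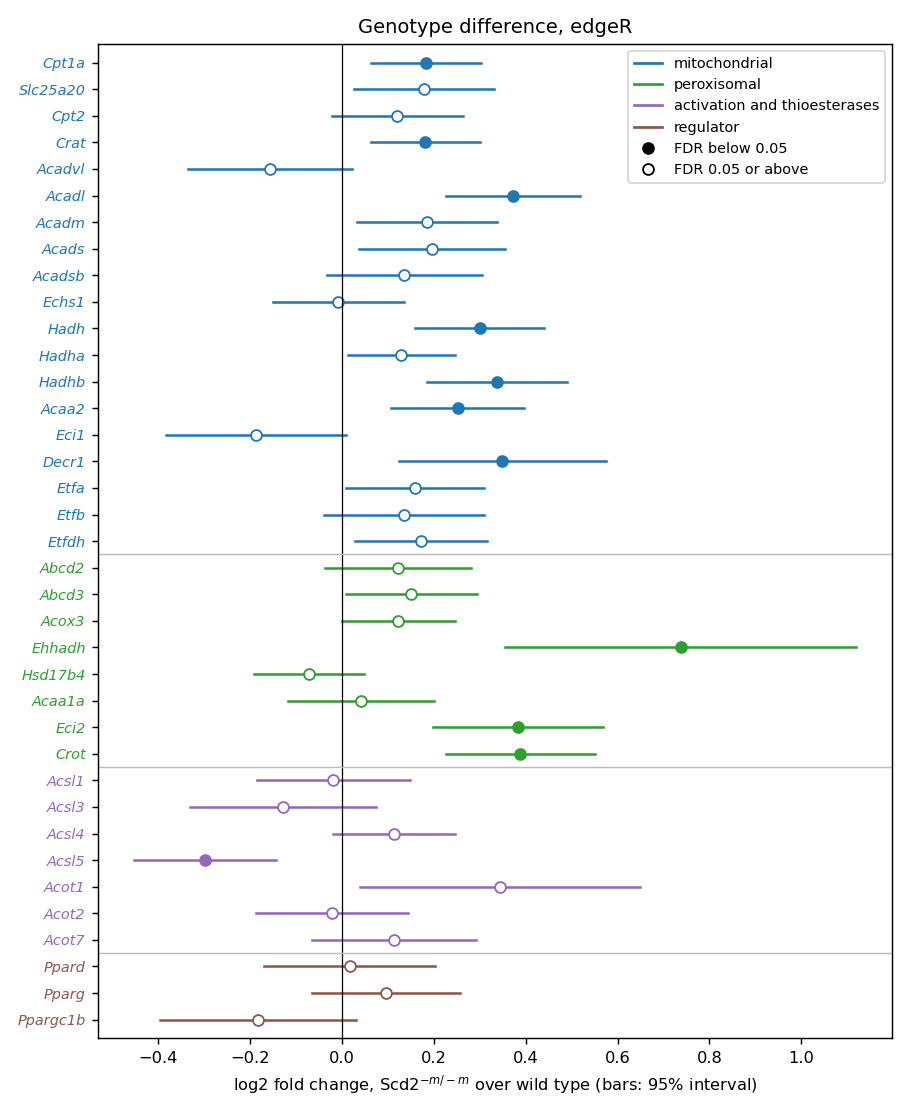
Log2 fold change of each of the 37 tested genes, *Scd2*-m/-m over wild type, with its 95% interval as a bar, from edgeR's quasi-likelihood fit to 3 libraries of each genotype, coloured by compartment. Filled points have an FDR below 0.05, 10 to the right of 0 and 1, *Acsl5*, to the left, and *Ehhadh* at 0.74 has both the largest value and the widest interval.

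Among the peroxisomal genes the rise was in 3 of the 6 enzymes, beside 9.65% of all genes tested. *Ehhadh*, the bifunctional hydratase and dehydrogenase of peroxisomes and a known PPAR alpha target in liver (chromosome 16, 21761287 to 21787807), had the largest fold of all 37 genes. It had 1.95, 2.32 and 2.18 CPM in wild-type and 3.15, 4.43 and 3.20 CPM in *Scd2*-m/-m libraries, a log2 fold change of 0.74 (SE 0.18, FDR = 0.0109, edgeR), to 167% of the wild-type level. It also had the lowest level of these 37 genes, with 97 to 111 counts in wild-type and 176 to 223 counts in *Scd2*-m/-m libraries. Its *Scd2*-m/-m replicate 2 stood above replicates 1 and 3. *Crot*, the carnitine octanoyltransferase that exports shortened chains (chromosome 5, 8966033 to 8997324), had 19.3, 21.2 and 22.3 CPM against 26.7, 26.5 and 29.0 CPM, a log2 fold change of 0.39 (SE 0.08, FDR = 0.00275, edgeR). *Eci2*, the enoyl-CoA isomerase of peroxisomes and mitochondria, had 15.1, 12.96 and 13.6 CPM against 16.9, 18.4 and 19.1 CPM, a log2 fold change of 0.38 (SE 0.09, FDR = 0.00725, edgeR). Its wild-type and *Scd2*-m/-m libraries were separate, and 11.1% of its 50-mers occur in another gene, most often its paralog *Eci3*.

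The ratio of *Eci2* to *Eci1*, isomerases that act on like substrates, was 1.37, 1.04 and 1.21 in wild-type and 1.62, 1.82 and 1.92 in *Scd2*-m/-m libraries (p = 0.1 by the same exact permutation test, its lower limit). This was the largest difference of the 5 ratios, 0.57 on the log2 scale. The lowest *Scd2*-m/-m ratio was above the highest wild-type ratio.

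The 3 peroxisomal enzymes with the highest levels per length did not pass the test. *Acaa1a*, the peroxisomal thiolase, had 196, 200 and 190 CPM against 216, 211 and 176 CPM, so that *Scd2*-m/-m replicate 3 lay below all wild-type libraries and the others above them (95% interval of the log2 fold change −0.12 to 0.20). Of its 50-mers 17.1% occur in another gene, most often the paralog *Acaa1b*. *Hsd17b4*, the D-specific bifunctional enzyme, had 127 to 133 CPM against 120 to 128 CPM (95% interval −0.19 to 0.048). *Acox3*, an oxidase for branched chains, had 148 to 155 CPM against 156 to 168 CPM, separate by a narrow margin (log2 fold change 0.12, SE 0.06, FDR = 0.166, edgeR). The importers were likewise not called. *Abcd3*, which carries branched-chain and bile acid intermediates into peroxisomes, had 30.2 to 34.1 CPM against 35.1 to 35.8 CPM (FDR = 0.140, edgeR), and *Abcd2*, a carrier of very long chains, had 24.9 to 25.4 CPM against 24.8 to 29.4 CPM (FDR = 0.296, edgeR).

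Activation of free fatty acids is the work of the long-chain acyl-CoA synthetases, and here the only fall was found. *Acsl5*, the isoform of the mitochondrial outer membrane and endoplasmic reticulum (chromosome 19, 55251938 to 55297720), had 102, 93.7 and 84.2 CPM in wild-type and 79.2, 72.3 and 75.8 CPM in *Scd2*-m/-m libraries. It fell by 0.30 on the log2 scale (SE 0.07, FDR = 0.0110, edgeR), to 81.3% of the wild-type level, with no overlap. *Acsl1*, linked to inflammatory activation of macrophages, had 63.2, 54.8 and 50.8 CPM against 57.7, 54.0 and 55.0 CPM (95% interval of the log2 fold change −0.18 to 0.15). The ratio of *Acsl5* to *Acsl1* was 1.61, 1.71 and 1.66 in wild-type and 1.37, 1.34 and 1.38 in *Scd2*-m/-m libraries (p = 0.1 by the same exact permutation test, its lower limit). *Acsl3*, of the endoplasmic reticulum and lipid droplets, had 14.8 to 17.5 CPM against 13.7 to 16.5 CPM (95% interval −0.33 to 0.074). *Acsl4*, which prefers arachidonate, had 84.0 to 87.5 CPM against 87.2 to 98.5 CPM (95% interval −0.019 to 0.25). In these 3 isoforms the genotypes overlapped.

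Acyl-CoA thioesterases release free fatty acids again, and none was called. *Acot1*, the cytosolic enzyme, had 6.12, 5.18 and 4.68 CPM against 7.11, 7.58 and 5.62 CPM (log2 fold change 0.34, SE 0.14, FDR = 0.117, edgeR). *Acot2*, its mitochondrial paralog at the adjacent locus of chromosome 12, had 19.7, 18.9 and 17.5 CPM against 18.7, 18.8 and 17.7 CPM (95% interval −0.19 to 0.14). Of the 50-mers of *Acot1* 19.2% and of *Acot2* 27.7% occur in another gene, for each most often in the other of the pair, so the split of reads between them is uncertain. With that limit, the ratio of *Acot1* to *Acot2* was 0.310, 0.275 and 0.268 in wild-type and 0.380, 0.402 and 0.318 in *Scd2*-m/-m libraries (p = 0.1 by the same exact permutation test, its lower limit). *Acot7*, the cytosolic enzyme best known from brain, had 28.9 to 35.2 CPM against 32.1 to 37.6 CPM (95% interval −0.066 to 0.29).

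Of the receptors, *Pparg* and *Ppard* were expressed in every library, and neither was called. *Pparg*, the macrophage and fat cell isoform, had 34.5, 30.3 and 30.6 CPM in wild-type and 34.8, 31.3 and 35.8 CPM in *Scd2*-m/-m libraries (log2 fold change 0.096, 95% interval −0.066 to 0.26, FDR = 0.430, edgeR). *Ppard*, the isoform found in most tissues, had 32.2, 34.4 and 40.9 CPM against 39.1, 35.0 and 34.7 CPM (log2 fold change 0.017, 95% interval −0.17 to 0.20, FDR = 0.924, edgeR). For both the interval excludes changes as large as a log2 fold change of 0.30, the size seen for *Hadh* and *Acsl5*. *Ppara*, the isoform of liver and other oxidative tissues, had 0, 3 and 0 counts in wild-type and 5, 1 and 1 counts in *Scd2*-m/-m libraries and was not tested. *Pdk4*, a kinase that turns off pyruvate dehydrogenase and a common PPAR target, had 3, 0 and 0 counts against 2, 0 and 2 counts and was not tested either. For these 2 genes a difference was not detectable at this depth. *Ppargc1b*, a coactivator of nuclear receptors that promotes mitochondrial genes, had 9.04, 8.47 and 8.85 CPM against 8.29, 7.46 and 7.48 CPM (log2 fold change −0.18, 95% interval −0.40 to 0.031, FDR = 0.239, edgeR), with all *Scd2*-m/-m libraries below.

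Levels of different genes were compared per length, as CPM per kb of exon. In wild-type BMDMs the peroxisomal enzymes *Acaa1a* (44.2 ± 1.09, SD, n = 3) and *Hsd17b4* (38.3 ± 0.762) led, above *Cpt1a* (21.9 ± 0.313). *Etfb*, *Acadl*, *Crat* and *Acsl5* followed between 19.1 and 20.4, and the ranges of neighbours in this order overlapped. *Acsl5* (19.1 ± 1.78) and *Acsl4* (16.0 ± 0.359) were the most abundant synthetases, above *Acsl1* (5.37 ± 0.605) and *Acsl3* (3.78 ± 0.343), and the first 2 of these did not overlap. Among the receptors *Pparg* (10.8 ± 0.785) was above *Ppard* (4.77 ± 0.604), while *Ppara* averaged 0.0057. *Hadha* (16.4 ± 0.357) stood above its partner *Hadhb* (4.40 ± 0.203). At the low end of the tested genes were *Ppargc1b* (2.20 ± 0.0723), *Acot1* (1.36 ± 0.187) and *Ehhadh* (0.722 ± 0.0620), each apart from the next. Exon lengths join all annotated transcripts of a gene, which lowers the value of genes whose annotated transcripts differ.

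**Figure D3:**
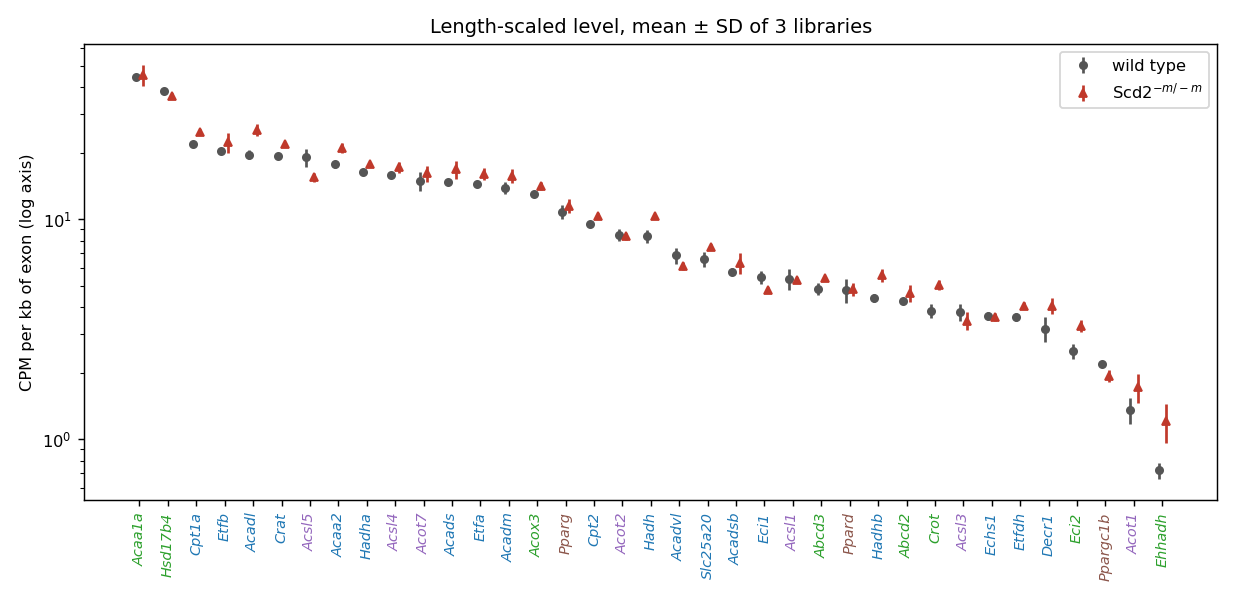
Level of each tested gene in CPM per kb of exon, on a log axis, as the mean ± SD of 3 libraries, with wild type as grey circles and *Scd2*-m/-m as red triangles (gene names in blue for mitochondrial, green for peroxisomal, purple for activation and thioesterase, and brown for regulator genes). The genes are in the wild-type order, from *Acaa1a* at 44.2 to *Ehhadh* at 0.722.

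Other genes of the same pathways were read in lists and set beside the 17.5% of all genes tested that were called. These lists were chosen with earlier results of these data known, so the shares describe the lists and test nothing. Of 28 tested further genes of mitochondrial oxidation 7 rose and 0 fell (25.0% called), with a median log2 fold change of 0.067. The 4 with the smallest p were *Acsf2*, a mitochondrial acyl-CoA synthetase (15.1 ± 1.86 to 21.1 ± 1.13 CPM, log2 fold change 0.48), *Hsdl2* (14.4 ± 1.09 to 19.8 ± 1.83 CPM, 0.45), *Aldh9a1*, of carnitine synthesis (112 ± 5.68 to 131 ± 3.86 CPM, 0.23), and *Cpt1c* (1.87 ± 0.247 to 3.00 ± 0.336 CPM, 0.68). Whether *Cpt1c* acts in mitochondrial oxidation was not tested. Of 22 tested further genes of peroxisomal oxidation 4 rose and 0 fell (18.2% called, near the share of all genes). Those 4 were *Hsdl2*, which counts in both lists, *Hacl1* of alpha-oxidation (log2 fold change 0.35), the dienoyl-CoA isomerase *Ech1* (0.22) and *Acot6* (1.24, at a mean of 0.250 CPM in wild-type libraries). Of 20 tested genes that build peroxisomes 0 rose and 1 fell, *Pex6*, an ATPase of protein import (59.02 ± 1.504 to 51.1 ± 2.34 CPM, log2 fold change −0.21), and 5.0% were called, with a median of −0.0035.

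Genes that follow mitochondrial content were read in 2 lists. In the citrate cycle 1 of 17 tested genes rose, the succinate dehydrogenase subunit *Sdhc* (112 ± 2.54 to 130 ± 1.04 CPM, log2 fold change 0.21), and 5.88% were called, with a median of 0.034. Of 20 genes of mitochondrial membranes and genome upkeep 0 rose and 3 fell (15% called), the DNA polymerase subunits *Polg* (57.3 ± 4.19 to 42.8 ± 3.17 CPM, log2 fold change −0.42) and *Polg2* (8.29 ± 1.37 to 5.96 ± 0.887 CPM, −0.47, with overlapping libraries) and the transcription factor gene *Nrf1* (28.6 ± 1.503 to 24.7 ± 0.407 CPM, −0.21). Among 13 genes of pyruvate dehydrogenase and its kinases 0 were called by edgeR, with 1 at an unadjusted p below 0.05. Of 17 tested further synthetases and thioesterases 1 rose, the acetyl-CoA synthetase *Acss2* (log2 fold change 0.44), and 1 fell, *Them6* (−0.48), or 11.8% called.

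Of 19 tested partners and coregulators of the PPARs 7 fell and 1 rose (42.1% called), with a median log2 fold change of −0.11. *Rxra*, a retinoid X receptor, had 113, 114 and 116 CPM in wild-type and 71.2, 70.5 and 66.5 CPM in *Scd2*-m/-m libraries. This was a log2 fold change of −0.72 (SE 0.06, FDR = 1.94e-06, edgeR). *Lpin2*, a lipin (198 ± 13.2 to 137 ± 8.92 CPM, log2 fold change −0.53), and *Pprc1*, a coactivator related to *Ppargc1b* (51.3 ± 3.00 to 35.4 ± 2.28 CPM, −0.54), also fell, and *Tbl1xr1*, a subunit of corepressor complexes, rose (90.05 ± 4.35 to 113 ± 5.79 CPM, 0.33). *Rxrb*, another retinoid X receptor, was not called (91.1 ± 2.51 to 85.0 ± 5.93 CPM, log2 fold change −0.099, FDR = 0.326, edgeR). In *Scd2*-m/-m libraries the mean of *Rxrb* was above that of *Rxra*, 69.4 CPM. Of 23 tested PPAR target genes outside the 39, 3 rose and 1 fell, with a median of 0.031, and this share of 17.4% is near that of all genes tested. Those that rose were the glycerol kinase gene *Gk* (log2 fold change 0.45), the fatty acid binding protein gene *Fabp4* (0.60) and the monoacylglycerol lipase gene *Mgll* (0.73), and the hormone-sensitive lipase gene *Lipe* fell (−0.31).

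**Figure D4:**
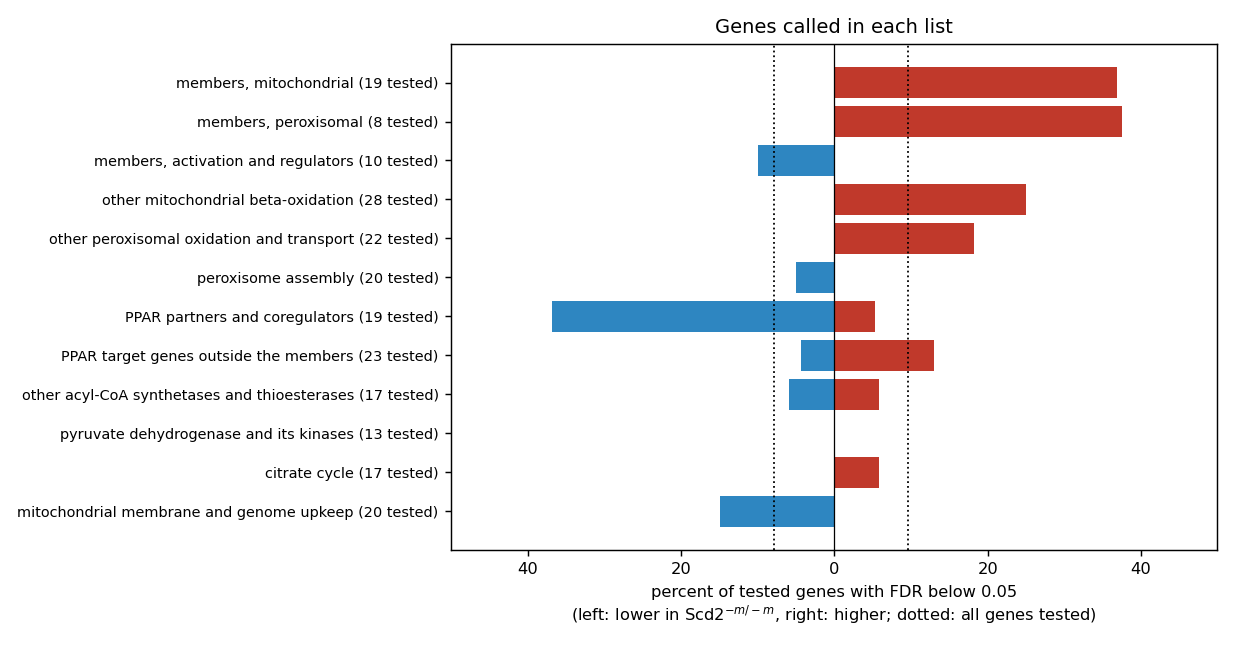
Percent of the tested genes of each list with an FDR below 0.05 in edgeR's comparison of 3 *Scd2*-m/-m with 3 wild-type libraries, higher in *Scd2*-m/-m to the right in red and lower to the left in blue, with dotted lines at 9.65% and 7.84%, the shares of all genes tested. The oxidation lists have red bars only, and the list of PPAR partners and coregulators has mainly a blue bar.

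Each call was repeated with 1 library left out at a time. *Acadl*, *Hadh*, *Hadhb* and *Crot* were called with any of the 6 libraries left out, with log2 fold changes of 0.32 to 0.40, 0.25 to 0.34, 0.29 to 0.38 and 0.33 to 0.44 (edgeR). *Eci2* lost its call only without wild-type replicate 2 (FDR = 0.0559), and *Ehhadh* only without *Scd2*-m/-m replicate 2 (log2 fold change 0.56, FDR = 0.0799). *Acsl5* lost it without wild-type replicate 2 (FDR = 0.0555) and without *Scd2*-m/-m replicate 2 (FDR = 0.0866), and *Acaa2* without wild-type replicates 1 or 2 or *Scd2*-m/-m replicate 2 (FDR 0.0652, 0.0665 and 0.114). *Decr1* kept its call only without wild-type replicate 3 or *Scd2*-m/-m replicate 1, with an FDR of 0.0890 to 0.158 otherwise and log2 fold changes of 0.25 to 0.44 over all 6. *Cpt1a* kept it only without *Scd2*-m/-m replicate 1 (FDR 0.0503 to 0.189 otherwise), while its log2 fold change stayed at 0.16 to 0.20, and *Crat* only without *Scd2*-m/-m replicate 3 (FDR 0.0504 to 0.165 otherwise), while its log2 fold change stayed at 0.17 to 0.20. No called gene changed its direction. The number of the 37 genes called was 8 without wild-type replicate 1, 5 without replicate 2 and 9 without replicate 3, where 15.3%, 9.83% and 15.1% of all genes were called. It was 12 without *Scd2*-m/-m replicate 1, 5 without replicate 2 and 11 without replicate 3, where 17.0%, 9.53% and 13.4% of all genes were called.

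In the other direction, limma-voom with quality weights called 23 of the 37 genes, 21 higher and 2 lower, the 11 genes above among them, while it called 30.5% of all genes tested. The genes it added were *Slc25a20*, *Acadm*, *Acads*, *Hadha*, *Etfa*, *Etfb*, *Etfdh*, *Abcd3*, *Acox3*, *Acsl4* and *Acot1*, all higher, and *Eci1*, which was lower. DESeq2, with 18.3% of all genes called, limma-voom without weights, with 17.0%, and edgeR with the replicate number as a block, with 20.1%, each called the same 11 genes.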

How the data were processed

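The authors aligned reads with STAR to an Ensembl assembly of GRCm38, and the values they deposited are unnormalized counts for each gene. Which counting tool was run, and whether with strand, is not stated in the sources. A second deposited table, with the authors' own fold changes and p-values, was not used. The 276 rows repeating a gene were removed, leaving 40481 genes. Among counts of 1 to 20, 60.9% to 64.9% were even in each library, and whether a count is a read or a fragment was not settled.

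Counts were tested with edgeR 4.0.16 (filterByExpr, TMM factors of 0.979 to 1.02, glmQLFit with robust estimation, glmQLFTest) over 14778 genes in R 4.3.3, with Benjamini-Hochberg adjustment (FDR). An FDR below 0.05 was called, SE is the log2 fold change over the root of the F statistic, and 95% intervals use the fit's degrees of freedom. CPM are counts per TMM-scaled library total. As a check of the code, the fit was also run on counts simulated with the spread fitted here. Those simulated samples were independent, so the run says nothing on whether the 3 samples of a genotype are separate mice. Replicates of a genotype differed by more than sampling noise (chi-square per gene 10.4 to 31.9). Same-numbered libraries of the 2 genotypes had correlations of their deviations of −0.020 to 0.053, so they were not paired. Alternatives used DESeq2 1.42.0 and limma 3.58.1. Coordinates and exon lengths are those of GENCODE M21 (GRCm38), and upstream sequences those of RefSeq (GRCm38.p6).

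All 39 genes were named. Of other genes, at most 4 called genes per list with the smallest p were named, and *Rxrb* beside *Rxra*. The 39 genes and all lists were chosen with earlier results of these data known.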

Additional observations from a re-analysis of the deposited data

How the results depend on the processing

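Normalization by RLE or upper-quartile factors, DESeq2, limma-voom, a filter of 10 counts in every library and the replicate block each left 10 of the 39 genes called higher and 1 lower, and with no filter on low counts 9 were called higher, *Crat* being lost (FDR = 0.0566). Samples share only a replicate number, and with the replicate block 2975 genes were called in all against 2585. limma-voom with quality weights called 4507 genes in all, 21 of the 39 higher and 2 lower, of which 15 were mitochondrial, 5 peroxisomal and 3 of the activation, thioesterase and regulator genes. At an FDR below 0.01 these numbers were 1331 in all, 5 higher, 0 lower, 3 mitochondrial and 0 of the activation, thioesterase and regulator genes.

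With 1 library left out, between 1440 and 2567 genes were called in all, 5 to 11 of the 39 higher and 0 to 1 lower, 3 to 8 mitochondrial, 2 to 3 peroxisomal, and 0 to 2 of the others. The cause of these differences was not tested. The uncalled values near 0 changed sign in some settings. *Echs1* was 0.00081 with upper-quartile factors and 0.0061 with quality weights, and −0.040 to 0.021 with a library left out. With a library left out, *Acaa1a* ranged from −0.013 to 0.13, *Acsl1* from −0.089 to 0.073, *Acot2* from −0.069 to 0.019 and *Ppard* from −0.056 to 0.12. Of 518 values for single genes under other settings, 466 kept direction and side of the threshold. *Ppara* and *Pdk4*, with at most 5 counts per library, were below what this depth can compare.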
